A study of Mus musculus with 20 samples.

Results

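The comparison described here is that of sudemycin D6 with vehicle in mice carrying U2AF1(S34F) marrow, 5 mice on each side. Its members are all 10 mice of that genotype, of 20 mice in the series, and every gene and splice junction was measured in each of them. The recipients were wild-type F1 mice from a cross of C57BL/6 with 129S4Sv/Jae, lethally irradiated and transplanted with marrow pooled from several donors that carried a doxycycline-inducible U2AF1(S34F) transgene together with the rtTA activator. After at least 6 weeks of engraftment both groups received doxycycline in the chow (625 ppm) for 7 days, and over 5 of those days both were infused through a jugular catheter, with sudemycin D6 or with its cyclodextrin vehicle. RNA came from bulk bone marrow, so the donor-derived blood cells and what remains of the recipient's stroma were sequenced together. Each library is a separate mouse.

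U2AF1 is the small subunit of the factor that reads the AG at the 3′ end of an intron, and S34F, a substitution found in myelodysplastic syndromes and acute myeloid leukaemia, changes which acceptor sites it prefers. SF3B1 sits in the U2 small nuclear ribonucleoprotein, which binds the branch point a little further upstream. Sudemycin D6 binds SF3B1, so that in these mice a mutant and a drug act on neighbouring steps of the same 3′ splice site. A cassette exon is one that can be joined into the messenger RNA or skipped, and Ψ (percent spliced in) is the share of transcripts that include it.

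Per mouse, the reads on genes summed to between 49926328 and 62138138 and those on junctions to between 49566969 and 64813149. Neutrophil transcripts were abundant in every library (92192 to 168527 CPM, counts scaled to a library of fixed size, summed over 20 late neutrophil genes), and erythroid, B-cell, monocyte and stromal markers were all present. U2af1 stood at 50.3 ± 3.12 CPM under vehicle and 53.8 ± 2.60 under sudemycin D6 (mean ± SD, n=5; log2 fold change 0.10, FDR=0.33), a count that cannot tell the transgene from the endogenous gene. Sf3b1, which encodes the target of the drug, stood at 763 ± 17.2 and 764 ± 43.1 CPM (FDR=0.98). Where U2AF1(WT) mice are set beside these, 2 groups of 5 that share no mouse with them, the genotypes also differed in sex-linked transcripts: Xist had at most 0.145 CPM in the S34F mice and at least 879 in the WT mice. Transgene and sex cannot be told apart there, whereas the drug comparison lies within 1 pattern.

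Splicing was measured on cassette exons from the junction reads. An event is an exon with 1 choice of neighbours, and it was called when FDR (edgeR quasi-likelihood test, Benjamini-Hochberg adjustment) was below 10% and |ΔΨ| exceeded 1 percentage point, ΔΨ being sudemycin D6 minus vehicle. Of 25116 events tested, 338 were called (1.35%). Skipping prevailed: 231 events were skipped more under the drug (0.92%) and 107 were included more (0.426%), which makes 68.3% of the called events negative against 52.6% of all events tested. These events belong to 319 exons in 255 genes. Median ΔΨ was −7.12 points among the skipped and 7.01 among the included events, and 108 events moved by more than 10 points, of which 76 were skipped more. The 5 mice on one side did not overlap with those on the other in 238 of the called events, against 586 of all tested (2.33%). The calls depend on the way variation between mice is modelled: with an estimated negative binomial dispersion in edgeR 0 were called (1767 with unadjusted p under 0.05), with limma on Ψ 165 were, and without sudemycin mouse 2 there were 212.

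The 10 exons with the largest fall in Ψ and the 10 with the largest rise, among those called without overlap and with a mean of at least 20 reads a mouse, carry the description that follows. Their 3′ splice sites are given first because sudemycin D6 and U2AF1 both act there. Each line shows the last 20 bases of the intron and the first 3 of the exon, 5′ to 3′ on the transcribed strand, from the NCBIM37 (mm9) genome, and the capital is the base just before the AG, the position at which U2AF1(S34F) is known to discriminate. The first set was skipped more under sudemycin D6.
Tatdn1, 77 bp exon, chr15:58741202-58741224, minus strand: ctgtatgtatataccccTaggtc
Cnot2, 58 bp exon, chr10:115974332-115974354, minus strand: cctttccttcttcacttCagcct
AB124611, 44 bp exon, chr9:21344266-21344288, plus strand: tcttctgaatccctttgCagaga
Pecam1, 57 bp exon, chr11:106533110-106533132, minus strand: gtgcctggttccctttcCagctc
Atrx, 185 bp exon, chrX:103106991-103107013, minus strand: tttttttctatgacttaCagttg
Cmah, 289 bp exon, chr13:24487048-24487070, plus strand: ctccttccttgtgtcttTagggt
Mga, 117 bp exon, chr2:119767445-119767467, plus strand: cactgcctccacctccaTagtca
Pecam1, 23 bp exon, chr11:106523336-106523358, minus strand: gtgccgtctttgttttgCagatc
Atxn1, 121 bp exon, chr13:46051942-46051964, minus strand: cacttcctggaccttcaTagaag
9830107B12Rik, 91 bp exon, chr17:48268615-48268637, minus strand: ttctatgggccttcttgCagatg
The second set was included more.
4930523C07Rik, 110 bp exon, chr1:162000234-162000256, plus strand: ttaaatcatgaactttaCaggta
Pstk, 295 bp exon, chr7:138517030-138517052, plus strand: tttgttgttgtgttttgTagcca
Ddx26b, 111 bp exon, chrX:53747290-53747312, plus strand: tgtattttgtttccttaTagcca
Nap1l4, 36 bp exon, chr7:150704788-150704810, minus strand: caatttttttccccattTaggtg
4932438A13Rik, 63 bp exon, chr3:36921872-36921894, plus strand: ttcttattattttaattAagttg
Prom1, 24 bp exon, chr5:44392530-44392552, minus strand: cccccttttgtattttaTagtgt
Kctd20, 274 bp exon, chr17:29098339-29098361, plus strand: ctttgtgtctgctctttCagacc
Cep57l1, 78 bp exon, chr10:41443742-41443764, minus strand: ttttccttgccaatcttTagaaa
Csf3r, 99 bp exon, chr4:125703305-125703327, plus strand: gtctcgcttcatcgttaTagcat
Uckl1, 17 bp exon, chr2:181307189-181307211, minus strand: tccctgtgttgctgccaCagcgc

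Pecam1 encodes CD31, an adhesion and signalling receptor of platelets, leukocytes and endothelium, and 2 of its coding exons near the 3′ end of the gene were skipped more. Values per mouse are given throughout in the order of vehicle mice 1, 3, 5, 7 and 11 and sudemycin mice 2, 6, 9, 10 and 12. Ψ of the 57 bp exon was 51.5, 52.9, 50.8, 57.4 and 66.8% under vehicle and 36.5, 33.0, 30.9, 27.7 and 29.2% under sudemycin D6. No drug-treated mouse reached the lowest vehicle mouse, and the mean fell from 55.9 ± 6.64 to 31.5 ± 3.44% (FDR=0.00234). The 23 bp exon, which lies downstream, went from 56.2 ± 5.23 to 34.6 ± 11.8% (FDR=0.058). The 2 values are not independent, because the same junction, with 236 reads in the vehicle mice and 329 in the treated mice, skips both exons at once. Expression of Pecam1 itself fell from 38.6 to 33.1 CPM (log2 fold change −0.22, FDR=0.072). The exons are shown in capitals with 20 intron bases on each side.
Pecam1 57 bp exon, chr11:106533036-106533132, minus strand: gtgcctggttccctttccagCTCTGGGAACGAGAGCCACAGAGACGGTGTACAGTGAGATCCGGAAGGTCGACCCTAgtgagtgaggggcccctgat
Pecam1 23 bp exon, chr11:106523296-106523358, minus strand: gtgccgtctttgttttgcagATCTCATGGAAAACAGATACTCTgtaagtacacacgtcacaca

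Prom1, the gene of the progenitor-cell surface protein CD133, has a 24 bp coding microexon that moved the other way. Its Ψ was 26.9, 26.6, 26.2, 13.2 and 22.8% under vehicle and 42.2, 43.1, 32.8, 39.9 and 43.8% under the drug. The groups did not overlap, and the mean rose by 17.2 points (FDR=0.00117) with 490 to 797 reads a mouse. In the U2AF1(WT) mice the same exon rose by 19.4 points (FDR=0.00036). The exon keeps the reading frame, and it is shown with 20 intron bases on each side.
Prom1 24 bp exon, chr5:44392489-44392552, minus strand: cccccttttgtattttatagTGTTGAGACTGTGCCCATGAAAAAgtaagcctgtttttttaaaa

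**Figure D1:**
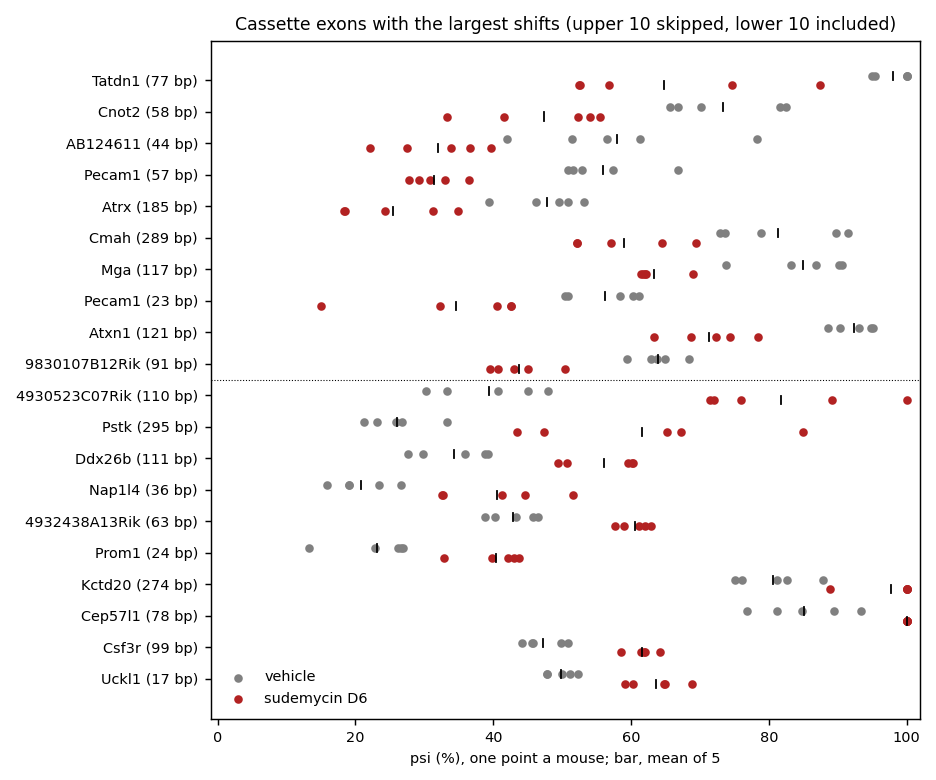
Ψ in percent (horizontal axis) of the 20 cassette exons with the largest shifts (rows, the 10 skipped more above the dotted line), 1 point a mouse, vehicle in grey and sudemycin D6 in red, with a bar at the mean of 5 mice. The Pecam1 exons sit lower and the Prom1 exon higher under sudemycin D6, with no mouse of one group inside the range of the other.

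Among the other exons skipped more, the largest fall was in Tatdn1, which encodes a deoxyribonuclease-like protein. Its 77 bp exon was at 95.0 to 100% in the vehicle mice and at 56.8, 52.4, 52.6, 74.6 and 87.5% under the drug. This event is thinly covered, with 16 to 62 reads a mouse, and 33 skipping reads in the treated mice stand against 2 in the controls (FDR=0.0585). Cnot2 encodes a subunit of the CCR4-NOT complex, which shortens poly(A) tails, and Ψ of its 58 bp exon fell from 73.4 ± 8.16 to 47.4 ± 9.55% (FDR=0.0205). The 92.4 ± 2.82% inclusion of a 121 bp non-coding exon of Atxn1, a chromatin-associated repressor, became 71.4 ± 5.74% (FDR=0.000198). Mga, a partner of MAX in the MYC network, lost inclusion of a 117 bp exon, from 84.9 ± 6.88 to 63.3 ± 3.17% (FDR=0.00676). In Atrx, the gene of a chromatin remodeller on the X chromosome, a 185 bp non-coding exon went from 47.8 ± 5.35 to 25.5 ± 7.51% (FDR=0.0389). A 91 bp coding exon of 9830107B12Rik was the best covered of the set, with 619 to 1255 reads a mouse: 68.4, 64.9, 59.4, 63.8 and 62.9% under vehicle became 39.5, 43.0, 45.0, 50.5 and 40.7% (FDR=1.78e-08). The remaining exons, of AB124611 and Cmah, fell by 25.9 and 22.3 points. All 10 sets of 5 mice lay apart from the controls, at the smallest p that an exact two-sided permutation test of 5 against 5 allows (0.00794), which is also a condition of their choice.

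Included more were exons of genes with quite different roles. Nap1l4 encodes a histone chaperone, and Ψ of its 36 bp exon was 23.5, 26.7, 19.1, 15.9 and 19.1% under vehicle and 44.6, 32.6, 51.5, 32.5 and 41.2% under the drug (FDR=0.00167). Csf3r, the receptor for granulocyte colony-stimulating factor, gained a 99 bp exon that is annotated as untranslated, from 49.8, 45.6, 50.9, 45.8 and 44.1% to 62.1, 58.5, 61.9, 64.2 and 61.5% (FDR=4.71e-09). The spread of about 2 to 3 points within each group is far below the difference of 14.4 points, and 1649 to 2585 reads a mouse stand behind each value. The 63 bp exon of 4932438A13Rik went from 42.9 ± 3.37 to 60.5 ± 2.20% (FDR=2.44e-05), as 1016 skipping reads over the vehicle mice gave way to 659 and 1520 inclusion reads to 2030. Uckl1, a uridine-cytidine kinase, has the shortest of these exons at 17 bp, which rose from 49.8 ± 1.98 to 63.6 ± 3.91% (FDR=0.0489). Ddx26b rose from 34.3 ± 5.26 to 56.0 ± 5.46% (FDR=1.26e-06). The exons of 4930523C07Rik (up 42.3 points) and Pstk (35.6 points) had the largest rises but at most 58 and 70 reads a mouse. In Kctd20 and Cep57l1 the skipped form all but vanished, from 128 skipping reads to 10 and from 32 to 0. Neither moved so in the WT mice, where ΔΨ was 1.18 for Kctd20 and −3.19 for Cep57l1. The difference between genotypes was not called for either.

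The next exons were chosen for a low FDR, whatever the size of their shift, after their values had been seen. Alox5ap encodes the protein that presents arachidonic acid to 5-lipoxygenase for leukotriene synthesis and is one of the deepest events, with 13808 to 21828 reads a mouse. Its 71 bp coding exon was included at 98.9, 98.8, 98.6, 98.8 and 99.0% under vehicle and at 94.0, 94.4, 95.7, 95.4 and 94.6% under sudemycin D6 (FDR=1.26e-17). Skipping thus went from 480 to 2495 reads. Ptprc, which encodes the pan-leukocyte phosphatase CD45, lost inclusion of a 72 bp exon from 88.3 ± 1.38 to 82.3 ± 1.06% (FDR=1.78e-08). A 105 bp exon of Sp140, a nuclear body protein of leukocytes, fell from 93.6 ± 1.12 to 85.9 ± 1.90% (FDR=5.83e-08), and a 39 bp exon of Mctp1, a calcium-binding membrane protein, from 44.4 ± 3.76 to 31.1 ± 3.38% (FDR=5.88e-07). In the opposite direction, Macf1, an actin-microtubule crosslinker, went from 16.1 ± 2.19 to 28.7 ± 3.55% (FDR=1.62e-08), and Tmpo, a protein of the nuclear lamina, from 75.5 ± 2.43 to 84.4 ± 1.89% (FDR=2.75e-07).

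**Figure D2:**
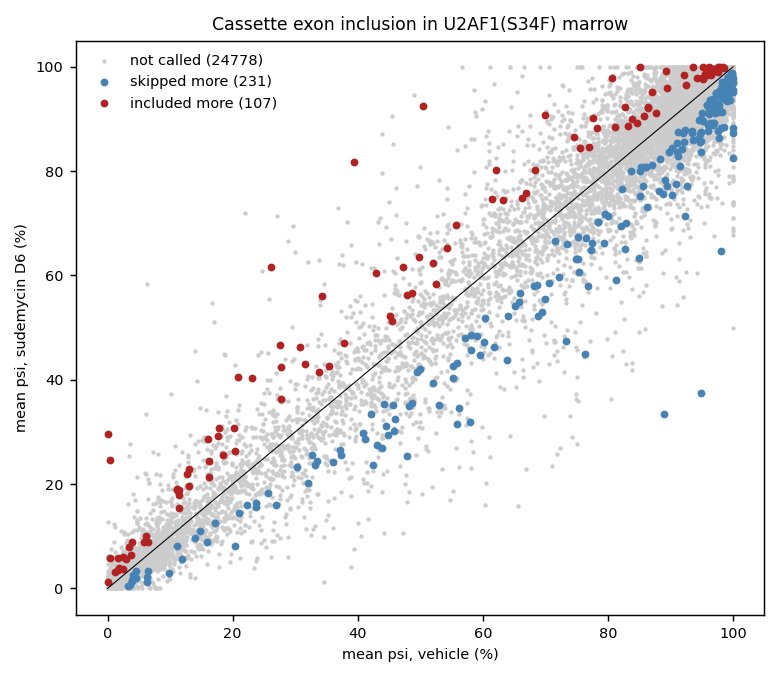
Ψ of cassette exon events in percent, mean of the 5 vehicle mice on the horizontal axis and of the 5 sudemycin D6 mice on the vertical axis, called events in colour. Of the called events, 231 lie below the diagonal and 107 above it.

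What the skipped and included exons share was counted over exons, taking 1 event for each, without a test because exons are not replicates. Intron lengths were measured to the exons that the event joins. Such a span can hold other exons, as for the Pecam1 exons, so it need not end at the nearest exon. The 217 exons skipped more had long spans, with medians of 5244 bases upstream and 6097 downstream, against 2106 and 1914 over all 20233 exons tested. The 102 exons included more had short ones, with medians of 1517 and 1396.5 bases. A control set of 3637 tested exons with a vehicle Ψ of 10 to 90% had medians of 2197 and 2202. Skipped exons were shorter (median 93 bp against 112 bp), and 7.83% of them, 17 exons, were microexons of 30 bp or less, against 1.97% of all, 2.80% of the control set and 3.92% of the included exons. Included exons more often had a length divisible by 3, 62.7% against 46.5% of the skipped exons, 46.7% of the control set and 39.6% of all exons.

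The 3′ splice sites differed as well. The base before the AG was C in 64.1% of skipped exons, 57.8% of included exons and 54.6% of all exons, and T in 29.95, 33.3 and 38.4%. Pyrimidines made up a mean of 68.7% of the last 20 intron bases ahead of skipped exons and 64.8% ahead of included ones, against 67.5% of all. The letters CTAAC or CTGAC, a form of the branch point sequence, stood between 60 and 15 bases before 18.6% of included exons, 10.6% of skipped exons and 12.2% of all. The vehicle level also differed between the sets, with a median Ψ of 89.7% for events skipped more, 50.5% for events included more and 97.7% for all events. How much of the other contrasts goes with that level was not tested beyond the control set, in which C preceded the AG in 55.4% and the letters occurred in 10.5%.

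**Figure D3:**
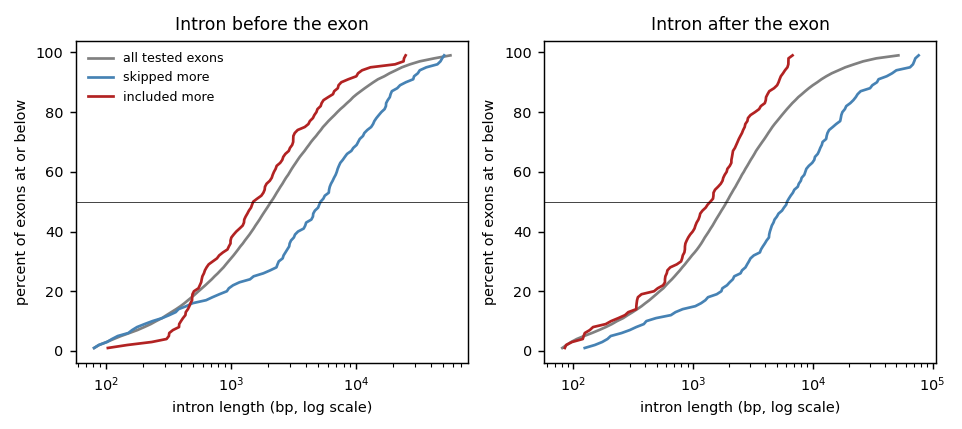
Percent of exons with an intron at or below a given length (vertical axis) against that length in bases (horizontal axis, log scale), before and after the exon, for exons skipped more, exons included more and all exons tested. Lengths run to the exons that the event joins and can span other exons. At the 50% line the skipped exons lie to the right of all exons and the included exons to their left, with medians of 5244, 2106 and 1517 bases upstream.

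Summaries over all junctions of a mouse were compared as single values. Reads on junctions that skip an annotated exon made up 6.72 ± 0.26% under vehicle and 6.71 ± 0.16% under sudemycin D6 (two-sided exact permutation test, p=0.968, adjusted p=0.968 over 3 summaries, n=5). Reads on junctions outside the annotation were 2.60 ± 0.24 and 2.51 ± 0.21% (exact permutation p=0.556, adjusted p=0.833). Median Ψ over 24984 events was 98.34 ± 0.20% and 98.08 ± 0.15% (exact permutation p=0.0556, adjusted p=0.167). None of these passed the test, the last with a difference of −0.260 points.

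Other kinds of event gave fewer calls. Of 1433 pairs of mutually exclusive exons, 31 were called (2.16%), in 18 genes, 16 in one direction and 15 in the other. In Gp49a, a receptor gene of myeloid cells, use of the first exon of the pair fell from 40.9 ± 3.05 to 27.9 ± 1.86% (FDR=0.00043). The number was 17 without vehicle mouse 3 or sudemycin mouse 2 or 6, 20 without vehicle mouse 11 and 19 without sudemycin mouse 9. Alternative 3′ splice sites gave 10 calls of 2548 (0.392%). It was 0 without sudemycin mouse 2 (edgeR, 198 with unadjusted p under 0.05) or without sudemycin mouse 6 (192), between 3 and 6 without vehicle mouse 7 or 11 or sudemycin mouse 9 or 12, and 0 by limma. The longer form of Cdk9, the kinase of the elongation factor P-TEFb, went from 15.9 ± 3.19 to 8.06 ± 1.38% of its reads (FDR=0.0315), that of Ncor1, a nuclear receptor corepressor, from 60.04 ± 2.97 to 50.5 ± 2.99%, and that of Ino80d, a chromatin remodelling subunit, from 62.9 ± 3.26 to 44.5 ± 5.86%, both at the same FDR. A single alternative 5′ splice site was called of 1501 (0.0666%), in the kinase gene Cdk11b, where the longer form had 52.1, 63.2, 56.3, 54.1 and 52.99% under vehicle and 39.7, 36.98, 42.2, 33.7 and 38.7% under the drug (FDR=0.000225). Without vehicle mouse 5 there were 2 such calls.

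Events were also called in a few genes of splicing regulators. Clk4, a kinase that phosphorylates SR proteins, gained a 67 bp exon, from 30.7 ± 7.58 to 46.3 ± 6.47% (FDR=0.00916), and skipped the next exon, of 59 bp, more often. Inclusion of that exon went from 94.8 ± 2.41 to 83.6 ± 3.73% where it was measured against the 67 bp exon as neighbour (FDR=0.00969). Among 35 hnRNP and related genes 5 of 170 events were called, beside 1.35% of all events, and limma called 0 of them. A 70 bp exon of Hnrnpl rose from 5.78 ± 1.18 to 8.89 ± 1.63% (FDR=0.00662), one of 80 bp in Celf2 rose from 84.7 ± 1.70 to 89.3 ± 2.87% (FDR=0.0706), and the 36 bp exon of Mbnl1 fell from 82.3 ± 2.94 to 76.6 ± 3.97% (FDR=0.0751). In Hnrnph2 skipping went from 59 reads in the vehicle mice to 0, but those reads came from 3 of the 5 mice. A non-coding exon of Lsm6, a ring subunit that binds U6 RNA, fell from 66.0 ± 5.49 to 56.7 ± 3.06% (FDR=0.0916). Limma called 0 of the 57 core spliceosome events, to which that of Lsm6 belongs, and 1 of the 45 in kinases of SR proteins. By edgeR 0 of 43 events were called in SR protein genes, 0 of 17 in SF3B and SF3A genes and 0 of 51 in genes of the U2AF group, with 2, 0 and 12 at an unadjusted p under 0.05 and 0 by limma in each.

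Genes with cassette exons singled out by the study, which chose them on these samples, are not independent evidence. For each of 16 such genes the tested event with the lowest p was taken. It need not be the exon that the study describes, and taking the lowest p favours calls. Of these 16 events, 12 were called. The largest rise after that of 4932438A13Rik was in Eif4a2, an RNA helicase of translation initiation, whose 107 bp exon went from 61.5 ± 2.22 to 74.6 ± 4.06% (FDR=7.66e-06). Fn1, which encodes fibronectin, gained a 270 bp exon from 16.1 ± 1.24 to 24.4 ± 3.10% (FDR=8.08e-06), and Ppp1r12a, a myosin phosphatase subunit, a 171 bp exon from 31.6 ± 2.99 to 43.1 ± 1.97% (FDR=1.99e-05). Mdm4, a restrainer of p53, lost inclusion of a 68 bp exon from 65.8 ± 6.31 to 54.8 ± 4.68% (FDR=0.0204), with overlap between the groups and with the gene's expression at a log2 fold change of −0.04 (FDR=0.79). Exons of Cd97 (FDR=0.309), Eif4g1 (0.426), Hnrnph1 (0.249) and Klhl6 (0.331) were not called.

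In the U2AF1(WT) mice, 332 of the 338 called events could be tested, and 311 changed in the same direction (93.7%), against 59.3% of all 19303 events tested in both genotypes. There the called events had median ΔΨ of −5.77 and 4.19 points for those skipped and included more. Both genotypes called 117 of the events, 34.6% of those called in S34F mice and 40.3% of the 290 called in WT mice. The difference between the drug effects in the 2 genotypes passed the test for 0 of 24758 events (edgeR, smallest FDR 0.166, 1346 with unadjusted p under 0.05), and limma gave 0 of 24206.

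Genes with a called exon were called for expression in a share near that of other genes. Of 254 such genes that were tested, 32 were called (12.6%), against 796 of 7108 genes with a tested exon (11.2%), and 16 of the 32 were higher. Irf7, the interferon regulatory factor that amplifies the interferon response, was 1 of these. Its 93 bp coding exon fell from 89.5 ± 3.72 to 77.2 ± 2.87% (FDR=0.0845) while its expression also fell.

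Gene expression was tested on 14714 of 37620 genes, and 1588 were called at FDR<10% (10.8%), 727 higher (4.94%) and 861 lower (5.85%) under sudemycin D6. Most changes were moderate, with a median of 1.28-fold among the genes that rose and 0.699-fold among those that fell, and 223 genes changed more than 2-fold. The groups did not overlap in 956 of the called genes and in 7.67% of all genes tested, 3.6% with higher and 4.06% with lower values under the drug. In bulk marrow, fewer cells of a type and less RNA per cell cannot be told apart, which holds for every gene group below. Leaving out vehicle mouse 1 or sudemycin mouse 2 reduced the calls to 952 and 913.

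Interferon-stimulated genes fell as a group. Of 47 tested, 30 were lower and none higher, with a median log2 fold change of −0.72 against −0.01 over all genes, of which 5.85% were lower. They included sensors, effectors and regulators of the antiviral state. Ifit3, an RNA-binding antiviral effector, was at 4.83, 3.81, 16.1, 5.63 and 5.63 CPM under vehicle and at 0.649, 1.69, 1.14, 0.871 and 0.981 under the drug (log2 fold change −2.72 ± 0.41 SE, FDR=0.0049). Every treated mouse lay below every vehicle mouse, and vehicle mouse 5 lay far above the other vehicle mice. Its relative Ifit1 (−1.93, FDR=0.0050) and the neighbouring I830012O16Rik (−2.82, FDR=0.0010), an Ifit-like gene, behaved alike, and such close relatives can share reads. Irf7 went from 31.2, 27.9, 49.3, 29.6 and 31.3 to 14.6, 17.9, 14.8, 14.5 and 17.6 CPM (−1.09 ± 0.15, FDR=0.0021). The ubiquitin-like modifier Isg15 fell from 3.29 to 0.992 CPM (FDR=0.0069), its protease Usp18 by 1.64 on the log2 scale (FDR=0.0012), the oligoadenylate synthetase Oas3 from 88.8 to 50.6 CPM (FDR=0.012) and the transcription factor subunit Irf9 from 79.9 to 54.7 CPM (FDR=0.019). The GTPases Tgtp1 and Tgtp2, near-identical neighbours, fell by 1.79 and 1.89.

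The group's summed level was 1978, 1894, 3179, 2395 and 2089 CPM under vehicle and 1664, 1930, 1774, 1681 and 1940 under the drug. The sums thus overlapped, while the mice did not overlap in 19 of the 47 members, beside 7.67% of all genes tested. Without vehicle mouse 5, 25 members were lower, and without sudemycin mouse 2, 19 were. In the WT mice the same genes had a median of −0.18 and 7 fell, and none of them differed between the genotypes by the test of the difference.

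Promoters were searched for a sequence known from interferon signalling. The letters GAAA followed after any 2 bases by GAAA, on either strand, the core of the interferon-stimulated response element, was looked for in the 250 bases before the start of each gene in the RefSeq table (GRCm38.p6), which held a promoter for 9651 of the 14714 genes tested. A gene was counted when any of its promoters held the letters. They were found in 3.46% of all genes with a promoter and in 3.43% of tested genes. The share was 7.28% of genes that fell (41 of 563) and 3.03% of genes that rose (16 of 528). Among interferon-stimulated genes with a promoter they occurred in 10 of 22 members that fell and in 7 of 10 members that were not called. A match is a description of letters and not of binding. Shown are 30 bases around a match in 4 genes that fell, with the match in capitals.
Ifit3, chr19:34583363-34583392 (GRCm38.p6), plus strand: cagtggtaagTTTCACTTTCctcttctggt
Ifit1, chr19:34640775-34640804 (GRCm38.p6), plus strand: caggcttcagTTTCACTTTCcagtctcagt
Isg15, chr4:156200871-156200900 (GRCm38.p6), minus strand: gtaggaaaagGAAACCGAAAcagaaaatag
Igtp, chr11:58199512-58199541 (GRCm38.p6), plus strand: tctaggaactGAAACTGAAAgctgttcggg

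MHC class I and its loading pathway, which display peptides to cytotoxic T cells, followed, with 10 of 22 genes lower and none higher (median −0.34). Over all genes 5.85% were lower. In the WT mice the same list had a median of −0.03 with 1 gene lower. H2-K1, a classical class I heavy chain, was at 372, 403, 432, 432 and 362 CPM under vehicle and at 247, 265, 242, 236 and 266 under the drug (−0.67 ± 0.07, FDR=0.00049). The groups were far apart relative to their spread. H2-D1 fell from 1024 to 752 CPM (FDR=0.011), the light chain B2m from 631 to 499 (FDR=0.056) and the peptide transporter Tap1 from 110 to 81.9 (FDR=0.047). The non-classical H2-Q7 (−1.41, FDR=0.00014) and H2-Q6 (−1.50, FDR=0.00049) changed most, but the Q genes are close copies of one another and their split is uncertain. Of the 11 MHC class II genes 0 were called by edgeR (2 with unadjusted p under 0.05) and 0 by DESeq2, at a median of −0.60 and with 184 to 647 CPM summed under vehicle and 201 to 302 under the drug.

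**Figure D4:**
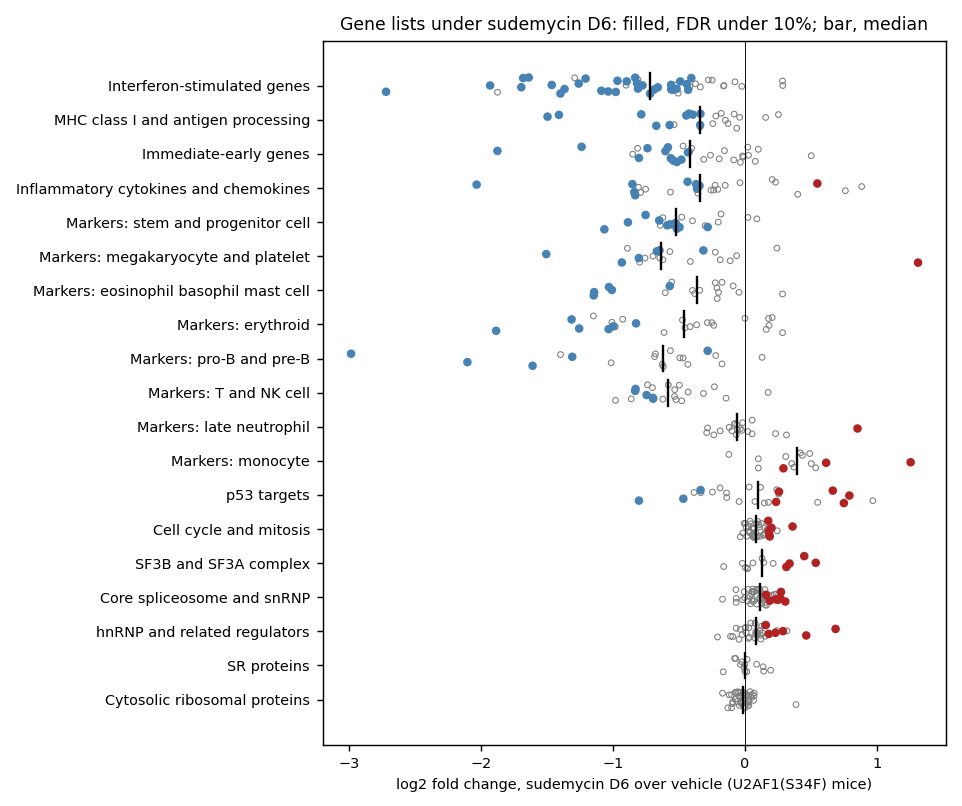
Log2 fold change (horizontal axis, sudemycin D6 over vehicle) of the tested members of each gene list (rows), filled where FDR was under 10%, with a bar at the list's median. The interferon-stimulated genes lie left of 0 for 45 of 47 members, and the core spliceosome genes right of it for 41 of 48.

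Immediate-early genes, which respond to growth and stress signals within minutes, fell in 11 of 29 cases with none higher (median −0.42), beside 5.85% of all genes that fell. Egr1, a zinc-finger transcription factor, was at 28.3, 24.9, 29.9, 13.5 and 33.1 CPM under vehicle and 6.24, 6.17, 5.74, 11.5 and 5.55 under the drug (−1.87 ± 0.27, FDR=0.0039). Sudemycin mouse 10 stood nearest to the vehicle mice without overlapping them. Btg2, an antiproliferative cofactor, went from 320, 271, 269, 224 and 255 to 174, 160, 134, 148 and 152 CPM (−0.80 ± 0.09, FDR=0.0011), and Ier2, Ier5, Junb, Jund and the GTPase gene Rhob fell by 0.58, 0.56, 0.43, 0.52 and 0.54. In WT mice 13 of the group fell, and Egr1 by 2.27. Atf3 of the same list, normalised over all 20 mice, stood at 4.76 ± 1.16 CPM under vehicle and 4.73 ± 1.26 under the drug, but in the WT mice it went from 68.6 ± 16.4 to 13.1 ± 3.35. The difference between these effects passed the test (interaction log2 2.38, FDR=0.00099), and the S34F vehicle mice were low already.

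Of 25 inflammatory cytokine genes 8 were lower and 1 higher, beside 5.85 and 4.94% of all genes. Il1b went from 215 to 119 CPM (FDR=0.056), Tnf from 33.8 to 25.01 (FDR=0.022), the chemokine Ccl6 from 261 to 146 (FDR=0.023) and Ptgs2, which encodes cyclooxygenase-2, from 16.3 to 3.94 (FDR=0.086), while the chemokine Ccl9 rose from 111 to 162 (FDR=0.021). This count rests on single mice and was 4 without vehicle mouse 1, vehicle mouse 3, sudemycin mouse 9 or sudemycin mouse 10, and 5 without sudemycin mouse 2 or 6.

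Stem and progenitor genes fell in 11 of 20 cases, beside 5.85% of all genes, again with none higher (median −0.52). Kit, the stem cell factor receptor, was at 73.0, 68.8, 59.5, 75.7 and 77.2 CPM under vehicle and 47.0, 38.2, 52.7, 55.5 and 45.1 under the drug (−0.57 ± 0.10, FDR=0.0078). All treated mice were below all vehicle mice. Angpt1, a ligand of the Tie2 receptor, fell from 12.96 ± 4.05 to 6.17 ± 1.34 CPM (FDR=0.016), Cd34 from 41.1 ± 8.63 to 28.2 ± 3.03 with overlap (FDR=0.036), the transcription factor genes Tal1 from 15.4 to 9.78 (FDR=0.036), Sox4 from 11.6 to 6.26 (FDR=0.037) and Meis1 from 9.38 to 6.64 (FDR=0.056), and Flt3 from 23.97 to 16.7 (FDR=0.046). Prom1, whose microexon rose, was not called for expression (log2 fold change 0.17, FDR=0.55). The number of members that fell was 5 without sudemycin mouse 2 and 7 without vehicle mouse 1 or sudemycin mouse 12. The summed level was 489 to 589 CPM under vehicle and 360 to 491 under the drug.

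Markers of several other lineages included genes that fell, beside 5.85% of all genes. Prg2, the major basic protein of eosinophil granules, went from 153, 177, 133, 205 and 156 to 71.8, 72.0, 102, 89.9 and 67.8 CPM (−1.03 ± 0.13, FDR=0.0018), and the eosinophil ribonuclease genes Ear6 and Ear1, which are close copies, and Prg3 fell alongside by 1.15, 1.14 and 1.01. Of 18 eosinophil, basophil and mast cell genes 5 were lower, and 9 were in the WT mice. Among megakaryocyte and platelet genes 6 of 20 fell, with Thbs1, thrombospondin, at 183, 203, 103, 68.2 and 86.5 CPM under vehicle and 51.3, 46.6, 50.8, 45.7 and 32.3 under the drug (−1.51 ± 0.29, FDR=0.019). The integrin Itga2b fell from 22.03 to 13.9 CPM (FDR=0.017) and the chemokine Pf4 from 7.33 to 3.82 (FDR=0.077). Without sudemycin mouse 2 the count was 3 and without sudemycin mouse 9 it was 11, and the summed levels of the list overlapped (523 to 630 against 374 to 533 CPM).

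Clec1b of the same list went against it. This podoplanin receptor of platelets was at 9.16, 7.13, 8.63, 14.3 and 10.4 CPM under vehicle and 23.9, 25.1, 33.7, 14.4 and 26.2 under the drug (1.31 ± 0.22, FDR=0.0088). The highest vehicle mouse and the lowest treated mouse, number 10, almost met. In the WT mice Clec1b changed by 1.31 as well (FDR=0.0022). The dendritic cell receptor gene Clec9a also rose, from 4.03 to 8.48 CPM (FDR=0.0023), but it overlaps Clec1b on the same strand, so that reads from one may have been counted on the other. Among the other dendritic cell genes Itgax fell from 63.1 ± 6.86 to 36.4 ± 7.86 CPM (FDR=0.0065), Siglech from 7.82 to 3.05 (FDR=0.079) and Flt3 as given above.

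Erythroid and lymphoid markers varied much between mice, and their counts stand beside 5.85% of all genes that fell. Of 24 erythroid genes 6 fell, among them carbonic anhydrase Car1 from 56.0, 65.3, 23.2, 25.8 and 30.6 to 12.01, 9.79, 4.11, 19.6 and 8.83 CPM (FDR=0.034), the water channel Aqp1 (−1.31, FDR=0.057) and the transcription factor gene Gata1 (−0.83, FDR=0.071). The haemoglobin genes were not called. The number was 1 without vehicle mouse 1 or sudemycin mouse 6, 9 or 12, and 3 without vehicle mouse 3 or sudemycin mouse 2, and the summed level ranged from 747 to 1708 CPM under vehicle and from 804 to 1254 under the drug. Rag1, a recombinase of developing lymphocytes, was at 2.24, 5.77, 1.05, 0.245 and 2.40 CPM under vehicle and 0.479, 0.304, 0.160, 0.371 and 0 under the drug (−2.98 ± 0.78, FDR=0.051). Vehicle mouse 7 lay within the treated range. Dntt and the surrogate light chain gene Igll1 fell with it (−1.61 and −2.10), as 5 of 18 pro-B and pre-B genes did, a number that was 0 without vehicle mouse 3, 1 without vehicle mouse 1 or 11 or without sudemycin mouse 2, 6, 9 or 12, and 3 without sudemycin mouse 10. Of 21 T and NK cell genes 5 fell, for example Cd3d from 6.56 to 4.04 CPM (FDR=0.048), with 0 left without sudemycin mouse 10, 2 without vehicle mouse 3 or sudemycin mouse 9, 3 without sudemycin mouse 6 and 10 without vehicle mouse 7. Of 14 mature B-cell genes 1 was lower, and of 10 plasma cell genes 2. In the WT mice the erythroid, the pro-B and pre-B, and the T and NK lists had medians of 0.05, −0.35 and 0.07, with 0, 3 and 0 genes lower.

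Myeloid genes that mark the bulk of the marrow did not follow. Of 7 primary granule genes 0 were called by edgeR (1 with unadjusted p under 0.05, 1 by DESeq2), and of 20 late neutrophil genes the decoy receptor gene Il1r2 rose, from 47.0 to 84.5 CPM (FDR=0.058). Monocyte genes had a positive median (0.39), and 3 of 14 rose, namely Fcgr1, a high-affinity IgG receptor, from 5.35, 4.68, 13.97, 5.47 and 5.60 to 12.97, 19.6, 14.9, 19.8 and 16.5 CPM (1.25 ± 0.29, FDR=0.032), Ly6c2 from 503 to 615 and the endotoxin co-receptor gene Cd14 from 84.6 to 129 (FDR=0.095). Vehicle mouse 5 lay within the treated range for Fcgr1, and without it 5 monocyte genes were called. Summed monocyte markers stood at 3403 to 4203 CPM under vehicle and 4052 to 4928 under the drug. Over all genes 4.94% were higher. In the WT mice the monocyte list had a median of −0.38 with 0 genes called, and the difference between genotypes was called for 0 of its members. Of 18 macrophage genes the metal transporter Slc11a1 rose from 68.6 to 91.4 CPM (FDR=0.029). Of 23 genes listed for stroma and endothelium 3 fell, all of low to moderate level, Spp1, Vwf and Pecam1. Vwf is also on the megakaryocyte list, and Pecam1 is a receptor of platelets and leukocytes too. Which cells the fall came from was not tested.

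**Figure D5:**
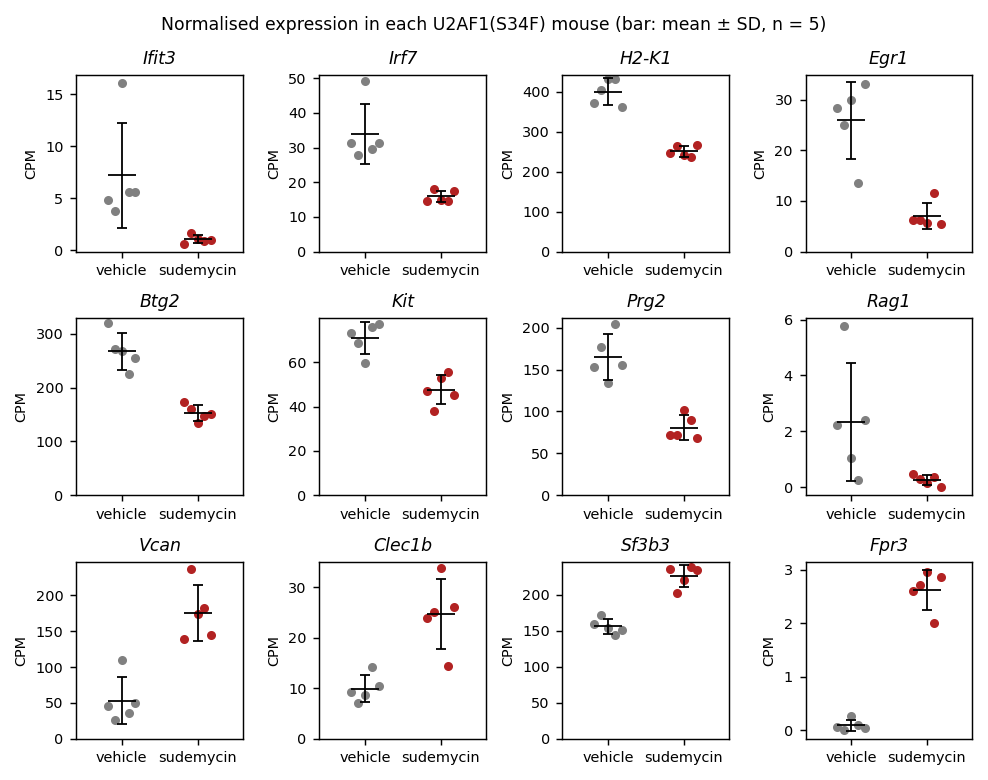
CPM (vertical axis of each panel, linear) of 12 named genes, 1 point a mouse, vehicle and sudemycin D6 side by side, with bars for the mean and SD of 5 mice. Ifit3, Irf7, H2-K1, Egr1, Btg2, Kit and Prg2 sit lower in every treated mouse than in any vehicle mouse, Vcan, Clec1b, Sf3b3 and Fpr3 higher, and the groups overlap for Rag1.

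Some transcripts of the splicing machinery rose, by small amounts. Of 13 genes of the SF3B and SF3A complexes 4 were higher and none lower. Sf3b3, whose product is part of the SF3B core together with SF3B1, was at 159, 172, 154, 144 and 152 CPM under vehicle and 236, 203, 220, 238 and 234 under the drug (0.54 ± 0.07, FDR=0.0012). All treated mice exceeded all vehicle mice, and the WT mice showed a change of 0.61 (FDR=0.014). Sf3a1, Sf3a2 and Sf3b4 rose by 0.31, 0.45 and 0.34. Of 48 core spliceosome genes 7 were higher, among them the U5 helicase Snrnp200 from 269 ± 9.90 to 323 ± 12.5 CPM (FDR=0.016) and the catalytic-centre protein Prpf8 from 396 ± 18.6 to 472 ± 13.5 (FDR=0.026), and 41 of the 48 lay above 0. The 6 of 35 hnRNP-type regulators that rose included Rbfox2, from 2.03 to 3.29 CPM (FDR=0.026), Pcbp2, from 117 to 162 (FDR=0.028), and Ptbp1, from 177 to 208 (FDR=0.060). Of 14 SR protein genes 0 were called by edgeR (1 with unadjusted p under 0.05) and 0 by DESeq2, while 3 of 9 kinases of SR proteins fell: Clk1 from 313 ± 21.0 to 259 ± 14.9 CPM (FDR=0.032), Srpk2 from 193 to 158 (FDR=0.057) and Clk4 from 103 to 88.8 (FDR=0.073). In the group of U2AF and 3′ splice site factors, Zrsr1 and Rbm39 fell from 17.4 to 13.3 and from 471 to 403 CPM.

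Over all genes 4.94% rose and 5.85% fell. The SF3 count was 2 without sudemycin mouse 2. The core spliceosome count was 3 without vehicle mouse 1, sudemycin mouse 2 or 10, and 4 without vehicle mouse 7 or 11 or sudemycin mouse 12, and the hnRNP count was 2 without vehicle mouse 11 or sudemycin mouse 2 or 10 and 3 without vehicle mouse 3 or sudemycin mouse 9. Summed levels did not overlap for the SF3 list (1871 to 1921 CPM against 1944 to 2091) or the core spliceosome (3103 to 3195 against 3287 to 3467). They did overlap for the hnRNP list (6229 to 6863 against 6456 to 7135).

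Stress and growth lists changed at a few genes each, beside the 4.94 and 5.85% of all genes that rose and fell. Of 24 p53 targets 5 rose, among them Cdkn1a, the cell cycle inhibitor p21, from 6.06 ± 1.39 to 10.5 ± 2.03 CPM (FDR=0.020), and the RNA-binding protein gene Zmat3 from 2.77 ± 0.468 to 4.68 ± 0.697 (FDR=0.018), and 3 fell, namely Btg2, Gadd45a (−0.47) and Sesn1 (−0.34). The number that rose was 3 without vehicle mouse 1 or sudemycin mouse 2. Cell death genes Bax and Bak1 rose by 0.23 and 0.20 in a BCL2 family of 16. Of 41 cell cycle genes 6 rose, the mitotic kinase Plk1 most (39.4 to 50.6 CPM, FDR=0.039), and 38 lay above 0, but leaving out vehicle mouse 1, 3 or 11 or sudemycin mouse 10 or 12 left 2 calls and leaving out sudemycin mouse 2 left 1. Of 23 genes of the unfolded protein and integrated stress responses 2 fell, Ddit3 from 10.2 to 7.61 and Herpud1 from 74.9 to 66.8 CPM, and of 20 heat shock genes the cochaperones Dnajb1 and Dnajb4 fell. Among glucocorticoid-responsive genes 5 of 20 rose, such as Per1 (13.2 to 22.2 CPM, FDR=0.027), which also belongs to the clock list, where Clock was the other of 2 to rise among 17. Of 45 ribosomal protein genes 0 were called by edgeR (1 with unadjusted p under 0.05) and 0 by DESeq2, at a median of −0.02. The decay factor gene Smg6 fell by 0.19, the only one of 10 in the nonsense-mediated decay list, and Rab30 by 1.21, the only one of 12 snoRNA host genes.

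The gene with the largest rise was Fpr3 (ENSMUSG00000079700, chr17:18024816-18108641, plus strand), a formyl peptide receptor gene of the cluster around Fpr1 and Fpr2. It had 3, 0, 14, 5 and 2 reads in the vehicle mice and 152, 143, 166, 108 and 146 in the treated mice (fitted log2 fold change 4.45 ± 0.46, FDR=0.00049). In the WT mice the reads went from at most 3 a mouse to between 93 and 175. Fpr-rs4, another member of the cluster, had 0 reads in all 5 vehicle mice and 9, 6, 9, 2 and 2 under the drug. Fpr1 and Fpr2 were not called. The annotated Fpr3 starts at 18024816 and Fpr2 at 18024788, and both have a junction from the 5′ splice site at 18024863. Junction reads from that site, looked at after these values had been seen, are given next. Those that join it to the Fpr3 coding exon are fewer than the reads counted on Fpr3, and the source of the others was not tested.

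The 5′ splice site at chr17 position 18024863 (mm9) joins the next exon of Fpr2 in most transcripts. That junction had 14907 reads over the vehicle mice and 12935 under the drug, 87.8 and 82.7% of all reads from the site. Skipping of this 101 bp exon went from 11.2 to 14.8%, and Ψ of the exon was 90.8, 89.4, 87.8, 88.2 and 92.2% under vehicle and 81.9, 83.9, 86.6, 83.1 and 82.4% under the drug (FDR=0.000109). The junction from the same site to the coding exon of Fpr3 at 18107422 had 0 reads in all 5 vehicle mice, of 16986 from the site, which allows a share of up to 0.0177% for counting error alone. Under the drug it had 11, 11, 20, 6 and 3 reads, 0.326% of 15638. The other 2 junctions past Fpr2 with over 40 reads under the drug, to positions 18049466 and 18051365, went from 6 to 64 and from 4 to 44 reads. The WT mice had 0 and 32 reads on the junction to Fpr3. These genes are paralogs, and reads on their shared sequence may be placed on the wrong copy.

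Of the other genes with a large rise, Vcan, versican, a proteoglycan that monocytes produce, was the one expressed at a high level. It was at 45.3, 25.6, 110, 35.3 and 49.3 CPM under vehicle and 140, 236, 174, 183 and 145 under the drug (1.73 ± 0.35, FDR=0.022). Vehicle mouse 5 stood above the other vehicle mice and below every treated mouse. In the WT mice the change was −0.45 (FDR=0.70), and the difference between the genotypes was not called. The remaining 8 genes, 4931408C20Rik, Tnxb, Ces2e, Arhgap22, Gm6030, Gm10687, Gsdmc4 and Dnahc17, rose by 1.57 to 1.93 from low levels, for instance Dnahc17, an axonemal dynein heavy chain gene, from 1.07 ± 0.265 to 3.25 ± 0.693 CPM, and Tnxb, a matrix protein gene, from 0.297 ± 0.152 to 1.20 ± 0.612.

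The WT mice, in which 453 of 14763 genes were called (3.07%), changed in the same direction at 1323 of the 1563 called genes tested there (84.6%), against 64.7% of all 14400 genes tested in both. Both genotypes called 200 genes, 198 of them in the same direction. The 200 are 12.6% of the S34F calls and 44.2% of the WT calls. The difference between the drug effects was called for 2 of 15392 genes by edgeR (1144 at an unadjusted p under 0.05), Gla and Atf3, and for 116 by DESeq2. Gla, which encodes alpha-galactosidase, was at 14.5 ± 1.25 CPM under vehicle and 15.6 ± 1.65 under the drug in S34F mice, and at 28.0 ± 2.31 and 13.9 ± 1.59 in WT mice (interaction log2 1.12, FDR=0.00038, normalised over all 20 mice).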

How the data were processed

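Bulk marrow RNA, depleted of ribosomal RNA and sequenced as 2 x 126 bp stranded reads, was aligned by the authors with TopHat 2.0.8 to NCBI build 37 (mm9). The authors deposited whole-number read counts for 37620 genes and for 554616 splice junctions, unnormalised, with 1 column a mouse; the program that counted reads on genes is not given in the sources used here. Genes passing filterByExpr were tested on the 10 S34F mice with edgeR 4.0.16 in R 4.3.3 (TMM, robust quasi-likelihood, prior count 2 for log2 fold changes, Benjamini-Hochberg adjustment). WT mice were fitted on their own and the interaction on all 20. CPM are TMM-normalised.

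Splicing events were built from junctions with both ends annotated, and Ψ divides the inclusion reads by the 2 junctions that carry them. Events with a mean of 10 reads a mouse and 1 for each form were tested in edgeR with a coefficient for each mouse and the negative binomial dispersion at 0. The newer quasi-likelihood form was taken after both had been run (338 and 440 calls). On simulated data without change it called 1 of 25116 events, and no simulated count is given for the older form. With 200 events shifted by 0.2 in Ψ it recovered 188, and 10.5% of its calls were false. At a shift of 0.1 it recovered 55 of 200, and 12.7% were false. The spread between simulated mice was an assumed value and not that of these data, so these counts do not give the error rate here.

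Named genes and exons followed a rule: the 10 largest rises and falls among called, non-overlapping genes (mean of at least 1 CPM in the higher group) and exons (mean of at least 20 reads), up to 4 called members of each list, called events of splicing-factor lists, the 3 lowest FDR of other event types, genes called for the interaction, and what the study names. For a gene of which the study names an exon, the cassette event with the lowest p was taken. The comparison, gene lists and tests were chosen with earlier results of these data known. Alternatives were DESeq2 1.42.0 and its size factors, limma 3.58.1 on Ψ, other filters, read minimums and thresholds, 1 model of 20 mice and leaving out each mouse. Some genes and exons that this rule names are not reported here. Intervals and floors of 3 counts cover counting error only. Python 3.11.15 with pandas 2.3.3, numpy 2.4.6, scipy 1.17.1 and matplotlib 3.10.9 was used otherwise.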

Additional observations from a re-analysis of the deposited data

Results flagged for a closer look

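In 22 of 358 groups of 5 mice tested, 1 mouse stood apart from the other 4 by Dixon's criterion, which chance meets in about 1 of 20 groups. Vehicle replicate 5 was that mouse in 9 of them. It had the highest vehicle level of the interferon-stimulated genes Ifit3 (16.1 CPM, others 3.81 to 5.63), Ifit1 (13.3, others 4.102 to 5.53), I830012O16Rik (8.002, others 2.93 to 3.95), Usp18 (7.76, others 4.73 to 4.88), Irf7 (49.3, others 27.9 to 31.3) and Xaf1 (18.5, others 9.18 to 11.5). The same mouse was highest for Vcan (109.9, others 25.6 to 49.3) and for Fcgr1 (13.97, others 4.68 to 5.60), both of which rose under sudemycin D6, and lowest for inclusion of the Itgb3 exon (98.2%, others 99.6 to 100%).

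Sudemycin replicate 10 stood nearest to the vehicle mice for Egr1 (11.5 CPM, others 5.55 to 6.24), Dnahc17 (2.04, others 3.36 to 3.75) and the Kctd20 exon (88.9%, others 100%). Other expression values apart from their group were Ptbp1 in vehicle replicate 7 (153.9 CPM), Ddit3 in vehicle replicate 7 (9.03), Dnajb4 in vehicle replicate 1 (15.4), Rab30 in sudemycin replicate 6 (0.702) and Ear1 in sudemycin replicate 9 (18.2). Among exons these were Mga in sudemycin replicate 9 (68.9%), Klhl6 in vehicle replicate 7 (94.6%), Mcee in sudemycin replicate 2 (76.1%), Prkcb in vehicle replicate 11 (99.3%) and Sp140 in sudemycin replicate 12 (82.6%).

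The effect of the drug differed between S34F and WT mice, by the interaction term of edgeR, for Gla (log2 1.12) and Atf3 (log2 2.38). Transgene and sex-linked differences cannot be told apart in this contrast, and neither gene was called in the S34F mice themselves (FDR=0.51 and 0.98).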

How the results depend on the processing

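The number of genes called, 1588, became 788 in 1 model of all 20 mice (396 higher, 392 lower) and 826 at an FDR of 5% (382 higher, 444 lower), and DESeq2 called 1100 higher. Leaving out 1 mouse gave 913 to 1736 genes (408 to 857 higher, 505 to 879 lower), with totals of 952 without vehicle mouse 1 and 913 without sudemycin mouse 2, and 476 higher without vehicle mouse 11. The 338 cassette events became 165 with limma on Ψ (117 skipped, 48 included), 193 in 1 model of 20 mice (131 and 62) and 108 past 10 points (76 and 32). With annotated pairings alone there were 156 (97 and 59, chosen after seeing the data, 6194 events tested). With a dispersion estimated by edgeR there were 0 (0 and 0, with 1767 at an unadjusted p under 0.05) of the same 25116 events. The causes were not tested, other than that a stricter limit gives fewer calls. Leaving out 1 mouse gave 212 to 325 events (145 to 219 skipped, 67 to 108 included), the lowest of each without sudemycin mouse 2. With limma, alternative 3′ splice sites gave 0 calls (169 with unadjusted p under 0.05) and mutually exclusive exons 15; leaving out 1 mouse gave 0 to 12 and 17 to 29, and 1 to 2 alternative 5′ splice sites. DESeq2 called 116 genes for the interaction. The difference in median Ψ ranged from −0.322 to −0.190 points without 1 mouse and passed the test without vehicle mouse 11 (−0.322).

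Among the named genes and events, no called value changed direction under any alternative run. Direction was not checked for the other calls. The difference in the share of skipping reads, which was not called, ranged from −0.0644 to 0.0860 points without 1 mouse. Of 1672 values of named genes under alternatives, 1440 kept their side of the threshold and 232 lost the call, and of 1143 values of named events 897 and 246 did. No paired analysis was possible because the 2 groups share no replicate number. Events with few reads, such as those of Tatdn1, Pstk and 4930523C07Rik (at most 70 reads a mouse), give Ψ with the least precision.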

Other observations

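Called exons also occurred in genes of lineage and cell cycle lists whose expression was described by level alone. In Mki67, the proliferation marker, inclusion of a 116 bp coding exon fell from 97.8 ± 0.538 to 95.6 ± 0.767% (FDR=0.00428), and in Sp100, an interferon-inducible nuclear body protein, a 75 bp exon fell from 86.0 ± 2.55 to 80.8 ± 1.302% (FDR=0.0489). Chi3l3, a chitinase-like protein of neutrophils and macrophages, is the deepest event named, with 101247 to 209550 reads a mouse, and its 30 bp microexon was included at 98.2 ± 0.299% under vehicle and 96.3 ± 0.857% under sudemycin D6 (FDR=0.0526). Hdc, the histamine-synthesising enzyme, had a 135 bp exon at 99.2 ± 0.476 and 97.97 ± 0.427% (FDR=0.0847). In Add1, a membrane skeleton protein, a 50 bp non-coding exon with 6 inclusion reads over the vehicle mice had 130 under the drug, which is 0.0613 ± 0.0804 and 1.299 ± 0.759% (FDR=8.87e-05). In the WT mice that exon changed by −0.781 points.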
